A study of Homo sapiens with 6 samples.

Results

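The transcripts described here encode 10 amino acid transporters, SLC7A11, SLC7A5, SLC3A2, SLC7A1, SLC38A1, SLC38A2, SLC1A5, SLC1A4, SLC6A9 and SLC43A1, chosen by gene symbol out of 20474 annotated genes in the deposited tables. They were measured in HCT116, an established human colorectal cancer cell line whose genotype is labelled WT. One group of 3 libraries came from cells transfected with a control siRNA (sicontrol) and the other group of 3 from cells transfected with an siRNA against POU2F1 (siPOU2F1). Polyadenylated RNA was sequenced 48 h after transfection, from 2 µg of total RNA per library. Whether a group's libraries came from separate cultures is not in the labels, so a p-value here speaks of the spread among these 6 libraries, which may be technical. Values per library are listed in replicate order, 1 to 3, throughout.

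Cells import amino acids through membrane carriers of several solute carrier families, and many of these carriers are exchangers that let 1 amino acid in against another going out. SLC3A2 is a heavy chain that brings light chains such as SLC7A5 and SLC7A11 to the plasma membrane, and the light chain carries the substrate. Uptake through these carriers feeds protein synthesis, glutathione synthesis and the signal of amino acid sufficiency to the kinase complex mTORC1, and cells short of amino acids raise transcription of several of the carriers through ATF4, a transcription factor that binds C/EBP-ATF response elements. POU2F1, also called Oct-1, is a transcription factor that binds the octamer element.

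Expression is given in FPKM, which divides a gene's fragments by its transcript length and by the fragments mapped in the library, so levels of different genes can be set side by side. The files hold no read counts and the absolute depth is unknown. The libraries were alike in the number of annotated genes at 1 FPKM or more (11670 to 11853) and in the mitochondrial share of the FPKM sum (5.97% to 8.32%). POU2F1 itself had 4.16, 3.60 and 4.26 FPKM in the sicontrol libraries and 1.87, 1.69 and 1.73 FPKM in the siPOU2F1 libraries. Its mean thus fell to 44.0% of the sicontrol mean, with all 3 siPOU2F1 libraries below all 3 sicontrol libraries (log2 fold change -0.99, SE 0.14, limma adjusted p = 0.0333). The exact permutation test of these values (two-sided here and below) gave p = 0.1, which is the smallest possible with 3 libraries in each group. The library siPOU2F1 replicate 3 stood apart from the other libraries of its group. Across tested genes its log2 values correlated with those of siPOU2F1 replicates 1 and 2 at r = 0.946 and 0.948. With those of sicontrol replicates 1, 2 and 3 the r was higher, at 0.969, 0.977 and 0.966. Between siPOU2F1 replicates 1 and 2 the r was 0.989. The POU2F1 level of siPOU2F1 replicate 3 was as low as in the other siPOU2F1 libraries. Fold changes are therefore given with this library and, where stated, without it. POU2F1 fell in the fit without it as well (log2 fold change -0.98, limma adjusted p = 0.00982). Leaving this library out was prompted by these same values and narrows the spread within siPOU2F1 wherever it stood apart. Adjusted p-values of that fit can therefore be too small, here and below.

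In siPOU2F1 replicates 1 and 2, 9 of the 10 transporter mRNAs lay below every sicontrol library and the other, SLC1A5, lay above every sicontrol library. In siPOU2F1 replicate 3 only SLC7A5 and SLC43A1 lay below every sicontrol library, while SLC7A11 and SLC1A5 lay above every one. The shares of all tested genes in these positions were not counted, so these per-library counts have no background beside them. With all 6 libraries, limma called 0 of the 10 transporters at an adjusted p under 0.05, against 1.24% of all 11831 tested genes. An unadjusted limma p under 0.05 was reached by 3 of the 10 (SLC43A1, SLC1A5 and SLC7A5), beside 2143 of the 11831 tested genes. The fold change was negative for 9 and positive for 1, with a median of -0.58 on the log2 scale beside -0.01 over all tested genes. The groups did not overlap for 2 transporters that were lower, where 12.0% of tested genes were, and for 1 that was higher, where 11.3% were. Without siPOU2F1 replicate 3, limma called 9 of the 10 lower, against 15.7% of tested genes, and 0 of the 10 higher, against 9.29% (median log2 fold change -0.83, beside -0.04 over all tested genes). When any other single library was left out, limma called 0 of the 10. What sets siPOU2F1 replicate 3 apart was not tested.

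**Figure D1:**
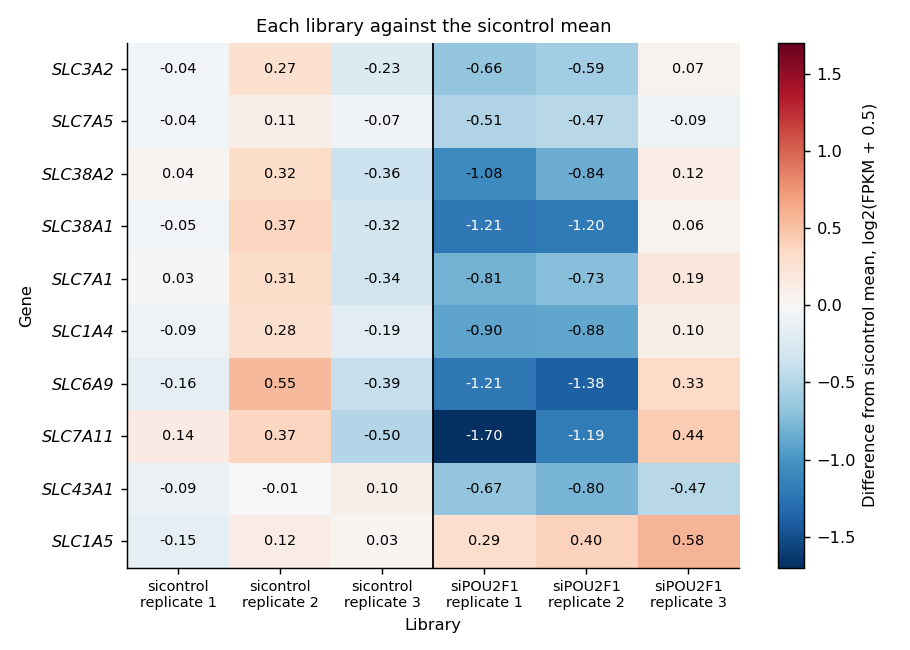
Difference of each library (columns) from the mean of the 3 sicontrol libraries for each transporter (vertical axis), in log2(FPKM + 0.5), with blue for lower and red for higher values. For the upper 8 genes siPOU2F1 replicates 1 and 2 are lower than every sicontrol library and siPOU2F1 replicate 3 is not, except for SLC7A5, while SLC43A1 is lower and SLC1A5 higher in all 3 siPOU2F1 libraries.

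The sequence around the start of transcription was searched for response elements, because most of the transporters varied together. Promoters of the RefSeq table (GRCh38.p14; 250 bases before to 50 bases after a start) were found for 9 of the 10 genes, as 16 windows, and SLC7A11 had no entry. The letters TGATGNAA, the core of a C/EBP-ATF response element, occurred on either strand in the windows of 5 of the 9 genes, against 3.62% of all 35116 promoters and 2.59% of the 9578 tested genes with a promoter. The matches are shown 5′ to 3′ on the strand of the gene, with the matching letters in capitals. SLC7A1, SLC38A1 and SLC1A5 hold them on the strand of the gene and SLC1A4 and SLC3A2 hold them on the opposite strand.
SLC7A1 at chr13:29595663-29595692: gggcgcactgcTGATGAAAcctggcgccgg
SLC38A1 at chr12:46266502-46266531: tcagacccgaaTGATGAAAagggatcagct
SLC1A5 at chr19:46784893-46784922: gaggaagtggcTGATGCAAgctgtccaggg
SLC1A4 at chr2:64989381-64989410: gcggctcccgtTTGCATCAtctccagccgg
SLC3A2 at chr11:62881719-62881748: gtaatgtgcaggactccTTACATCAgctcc
Counted from the start of transcription, the letters span bases 8 to 15 in SLC7A1, -4 to 4 in SLC38A1, -7 to 1 in SLC1A4 and 38 to 45 in SLC3A2. In SLC1A5 they span bases -97 to -90. The start used for SLC7A1 is the 5′ end of the annotated gene, and the other 4 starts lie inside the annotated span of their gene. A match is a run of letters and no measure of binding.

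Among these 5 genes, SLC7A1, SLC38A1, SLC1A4 and SLC3A2 were lower in siPOU2F1 replicates 1 and 2, and SLC1A5 was higher. The promoter windows of SLC7A5, SLC38A2, SLC6A9 and SLC43A1 do not hold TGATGNAA, and these 4 genes were lower in siPOU2F1 replicates 1 and 2 as well. Sequence outside the windows was not searched for TGATGNAA, and whether these letters bear on the levels was not tested. The octamer ATGCAAAT, the element that POU2F1 binds, was in the windows of 0 of the 9 genes on either strand (1.77% of all promoters and 1.80% of tested genes held it), which says only that these letters are not in these windows. TGACNNNGC, the core of an antioxidant response element, was in the windows of 4 of the 9 genes (SLC3A2, SLC7A1, SLC7A5 and SLC1A5), against 13.3% of all promoters and 19.5% of tested genes. The E-box CACGTG was in those of 3 (SLC43A1, SLC7A5 and SLC1A5), against 7.26% and 12.7%. Each motif was searched on both strands, and TGATGCAA and the octamer share the letters ATGCAA, so a single stretch can hold both.

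The heavy chain SLC3A2, also called 4F2hc or CD98, is needed at the membrane by both light chains among the 10 genes (ENSG00000168003, chr11:62856102-62888875 on the plus strand; gene positions are those of GENCODE 29 on GRCh38). Its level was 256, 318 and 224 FPKM in the sicontrol libraries and 167, 175 and 276 FPKM in the siPOU2F1 libraries. The first and second siPOU2F1 libraries were lower than every sicontrol library and the third lay within the sicontrol range, so the groups overlapped. Over all 6 libraries the mean ± SD over 3 libraries was 266 ± 47.6 FPKM for sicontrol against 206 ± 60.6 FPKM for siPOU2F1 (n = 3 each), a log2 fold change of -0.39 (SE 0.22, limma adjusted p = 0.370). Without siPOU2F1 replicate 3 it fell to 64.3% of the sicontrol mean (log2 fold change -0.62, SE 0.15, limma adjusted p = 0.0300).

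SLC7A5, or LAT1, is the light chain that takes up leucine and other large neutral amino acids in exchange for glutamine (ENSG00000103257, chr16:87830023-87869488, minus strand). It was at 116, 130 and 115 FPKM in the sicontrol libraries and at 84.4, 86.6 and 113 FPKM in the siPOU2F1 libraries. All 3 siPOU2F1 libraries were below all 3 sicontrol libraries, the third by a small margin. The mean ± SD over 3 libraries was 120 ± 8.15 FPKM for sicontrol against 94.5 ± 15.7 FPKM for siPOU2F1 (n = 3 each), a log2 fold change of -0.36 (SE 0.14, limma adjusted p = 0.233) (exact permutation p = 0.1). With siPOU2F1 replicate 3 left out, SLC7A5 fell to 71.1% of the sicontrol mean (log2 fold change -0.49, SE 0.09, limma adjusted p = 0.0169). Its level is uncertain to the extent that reads were shared with the pseudogenes SLC7A5P1 and SLC7A5P2, which the tables do not list by these names.

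SLC7A11, or xCT, is the light chain that exchanges extracellular cystine for glutamate and so supplies cysteine for glutathione (ENSG00000151012, chr4:138164097-138242349, minus strand). The sicontrol libraries had 10.2, 12.0 and 6.36 FPKM and the siPOU2F1 libraries had 2.50, 3.76 and 12.7 FPKM. The siPOU2F1 group thus held the lowest and the highest of the 6 values, and siPOU2F1 replicate 3 was at 133% of the sicontrol mean. The mean ± SD over 3 libraries was 9.53 ± 2.90 FPKM for sicontrol against 6.31 ± 5.55 FPKM for siPOU2F1 (n = 3 each), a log2 fold change of -0.82 (SE 0.54, limma adjusted p = 0.428). Without siPOU2F1 replicate 3, SLC7A11 fell to 32.8% of the sicontrol mean (log2 fold change -1.44, SE 0.28, limma adjusted p = 0.0176), which was the most negative fold change among the 10 genes in that fit.

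SLC7A1, or CAT1, carries the cationic amino acids arginine and lysine and needs no heavy chain (ENSG00000139514, chr13:29509410-29595688, minus strand). Its 3 sicontrol values were 70.9, 86.3 and 55.1 FPKM and its 3 siPOU2F1 values were 39.6, 41.9 and 79.6 FPKM, in replicate order. The first and second siPOU2F1 libraries were below the sicontrol range and the third was within it. The mean ± SD over 3 libraries was 70.8 ± 15.6 FPKM for sicontrol against 53.7 ± 22.5 FPKM for siPOU2F1 (n = 3 each; log2 fold change -0.45, SE 0.29, limma adjusted p = 0.425). Without that library SLC7A1 fell to 57.6% of the sicontrol mean (log2 fold change -0.77, SE 0.18, limma adjusted p = 0.0287).

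SLC38A1 and SLC38A2, or SNAT1 and SNAT2, are paralogs that import glutamine, alanine and other small neutral amino acids together with sodium, and they are neighbours on the minus strand of chromosome 12 (ENSG00000111371, chr12:46183063-46270017, and ENSG00000134294, chr12:46358189-46372867). SLC38A1 was at 78.0, 104.5 and 64.9 FPKM in the sicontrol libraries and at 34.7, 34.9 and 84.5 FPKM in the siPOU2F1 libraries. SLC38A2 was at 120, 146 and 90.8 FPKM in the sicontrol libraries and at 54.9, 65.0 and 127 FPKM in the siPOU2F1 libraries. For both genes the first and second siPOU2F1 libraries were below the sicontrol range and the third was within it.

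With all 6 libraries the log2 fold change was -0.78 for SLC38A1 (SE 0.36, limma adjusted p = 0.306) and -0.60 for SLC38A2 (SE 0.33, limma adjusted p = 0.357). When siPOU2F1 replicate 3 was left out, SLC38A1 fell to 42.2% of its sicontrol mean (log2 fold change -1.21, SE 0.19, limma adjusted p = 0.0112) and SLC38A2 to 50.4% (log2 fold change -0.96, SE 0.20, limma adjusted p = 0.0201). The log2 ratio of SLC38A1 to SLC38A2 averaged -0.53 ± 0.08 in sicontrol and -0.71 ± 0.16 in siPOU2F1 (SD, n = 3 each), with overlapping groups. The difference between the paralogs' fold changes was -0.19 on the log2 scale (exact permutation p = 0.2, adjusted over the 4 pairs of transporters compared p = 0.4). It was -0.25 without siPOU2F1 replicate 3 and -0.10 without siPOU2F1 replicate 2.

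SLC1A5, or ASCT2, exchanges glutamine and other neutral amino acids across the plasma membrane (ENSG00000105281, chr19:46774883-46788594, minus strand). It was the transporter with the highest level, at 373, 453 and 424 FPKM in the sicontrol libraries and at 509, 547 and 623 FPKM in the siPOU2F1 libraries. All 3 siPOU2F1 libraries were above all 3 sicontrol libraries, the third most of all. The mean ± SD over 3 libraries was 417 ± 40.2 FPKM for sicontrol against 560 ± 57.8 FPKM for siPOU2F1 (n = 3 each), or 134% of the sicontrol mean. The log2 fold change of 0.43 (SE 0.12) did not pass the test (limma unadjusted p = 0.00878, adjusted p = 0.142; exact permutation p = 0.1). It was 0.35 without siPOU2F1 replicate 3 (SE 0.11, limma adjusted p = 0.0619).

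SLC1A4, or ASCT1, is the paralog of SLC1A5 and exchanges alanine, serine and cysteine (ENSG00000115902, chr2:64988477-65023865, plus strand). It was measured at 19.6, 25.3 and 18.2 FPKM in the sicontrol libraries and at 10.9, 11.1 and 22.3 FPKM in the siPOU2F1 libraries. The first and second siPOU2F1 libraries were below the sicontrol range, and the third was within it (log2 fold change over all libraries -0.56, SE 0.29, limma adjusted p = 0.338). The fit without siPOU2F1 replicate 3 had SLC1A4 fall to 52.3% of its sicontrol mean (log2 fold change -0.89, SE 0.15, limma adjusted p = 0.0136). The log2 ratio of SLC1A4 to SLC1A5 was -4.22, -4.13 and -4.51 in the sicontrol libraries and -5.48, -5.57 and -4.77 in the siPOU2F1 libraries, so it was lower in every siPOU2F1 library than in any sicontrol library. The paralogs' fold changes thus differed by -0.99 on the log2 scale (exact permutation p = 0.1, the smallest possible; adjusted over the 4 pairs p = 0.4), and by -1.24 without siPOU2F1 replicate 3.

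SLC6A9, or GLYT1, takes up glycine with sodium and chloride (ENSG00000196517, chr1:43991500-44031467, minus strand). Its values were 9.65, 16.1 and 8.14 FPKM in the sicontrol libraries and 4.40, 3.85 and 13.8 FPKM in the siPOU2F1 libraries. The first and second siPOU2F1 libraries were below the sicontrol range and the third was within it. The mean ± SD over 3 libraries was 11.3 ± 4.25 FPKM for sicontrol against 7.34 ± 5.57 FPKM for siPOU2F1 (n = 3 each; log2 fold change -0.75, SE 0.48, limma adjusted p = 0.411). In the same fit without siPOU2F1 replicate 3, SLC6A9 fell to 36.5% of the sicontrol mean (log2 fold change -1.30, SE 0.27, limma adjusted p = 0.0209). Exons of CCDC24 on the opposite strand cover 7.83% of the exons of SLC6A9, and CCDC24 averaged 7.15 FPKM in sicontrol and 7.45 FPKM in siPOU2F1.

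SLC43A1, or LAT3, is a uniporter of large neutral amino acids that works without a heavy chain (ENSG00000149150, chr11:57484534-57515786, minus strand). Its sicontrol libraries were close together, at 13.9, 14.8 and 16.1 FPKM, and its siPOU2F1 libraries were at 9.21, 8.38 and 10.6 FPKM. All 3 siPOU2F1 libraries lay below all 3 sicontrol libraries, and the third, at 71.2% of the sicontrol mean, was low along with the first and second. The mean ± SD over 3 libraries was 14.9 ± 1.08 FPKM for sicontrol against 9.41 ± 1.14 FPKM for siPOU2F1 (n = 3 each), or 63.0% of the sicontrol mean. SLC43A1 had the lowest p of the 10 genes but was not called with all libraries (log2 fold change -0.64, SE 0.13, limma unadjusted p = 0.00158, adjusted p = 0.0714; exact permutation p = 0.1). It passed the test once siPOU2F1 replicate 3 was left out (log2 fold change -0.73, SE 0.11, limma adjusted p = 0.0110).

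**Figure D2:**
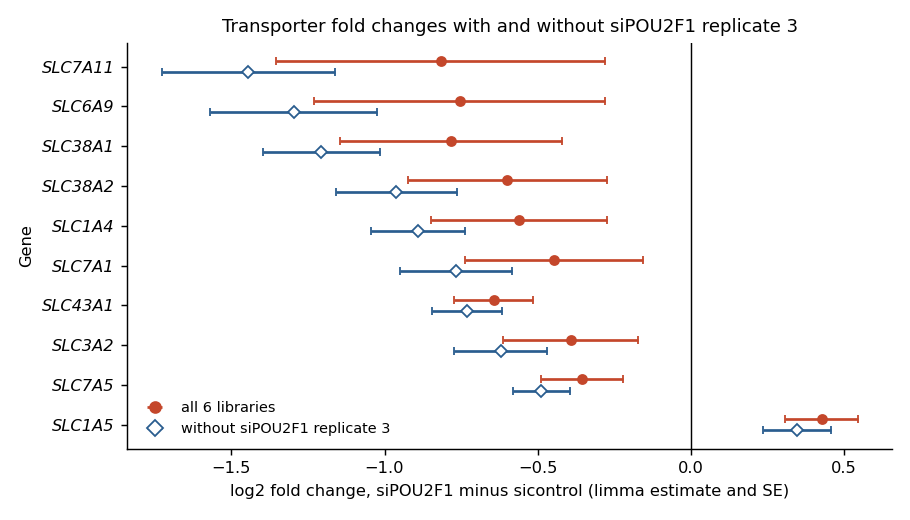
Log2 fold change of each transporter (vertical axis), siPOU2F1 minus sicontrol, as limma estimate (points) with its standard error (bars), with all 6 libraries (filled circles) and without siPOU2F1 replicate 3 (open diamonds). The estimates of SLC43A1 (-0.64 and -0.73), SLC7A5 (-0.36 and -0.49) and SLC1A5 (0.43 and 0.35) lie close together in both fits, while that of SLC7A11 is -0.82 with all libraries and -1.44 without that library.

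The order of the levels was nearly the same in both groups. In sicontrol SLC1A5 was highest, then SLC3A2, and neither range overlapped that of the next gene in the order. SLC7A5, SLC38A2, SLC38A1 and SLC7A1 followed with means from 120 to 70.8 FPKM, and neighbours among them overlapped in range. SLC1A4 at a mean of 21.0 FPKM stood clear of its neighbours. SLC43A1, SLC6A9 and SLC7A11 came last, each overlapping with the next. In siPOU2F1 the only change of place was between SLC38A1 and SLC7A1, at means of 51.4 and 53.7 FPKM with overlapping ranges. All 10 transporters passed the filter of a mean of 1 FPKM over the 6 libraries, the lowest of them at 7.92 FPKM.

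**Figure D3:**
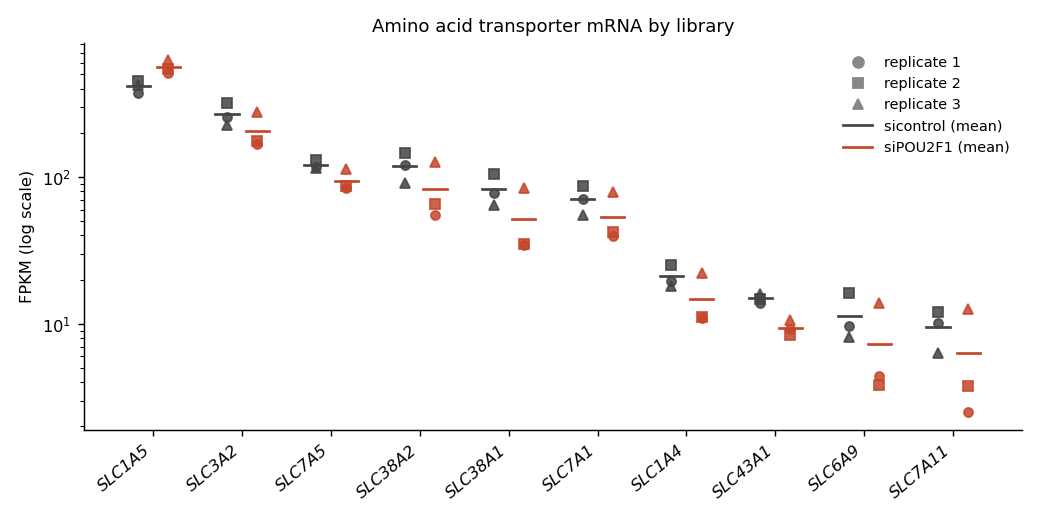
FPKM of the 10 transporters in each library on a log scale, ordered by the sicontrol mean, with sicontrol in grey, siPOU2F1 in red, symbols for the replicate number and short lines for the group means. SLC1A5 is the highest in both groups (means of 417 and 560 FPKM), and the red triangles of siPOU2F1 replicate 3 lie apart from the other red points in most genes.

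The 8 transporters other than SLC1A5 and SLC43A1 varied together also among the sicontrol libraries. SLC1A5, lowest in sicontrol replicate 1, and SLC43A1, highest in sicontrol replicate 3, were set apart by these same values. The likeness of the 8 genes therefore describes a chosen set and tests nothing. Sicontrol replicate 2 was the highest sicontrol library for 8 of the 8 genes and sicontrol replicate 3 the lowest for 8 of 8. How many of all tested genes had this order was not counted for comparison with these 8 genes. Their median difference from the sicontrol mean, in log2(FPKM + 0.5), was -0.04, 0.31 and -0.33 in the sicontrol libraries and -0.99, -0.86 and 0.11 in the siPOU2F1 libraries, where the median over all tested genes stayed between -0.04 and 0.04. As a description over 6 libraries that share their normalization, the 28 pairs among the 8 genes had Pearson r from 0.912 to 0.997 with a median of 0.980. SLC43A1 correlated with the 8 genes at r from 0.615 to 0.870, and SLC1A5 at r from -0.432 to -0.143.

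Outside the 10 genes, those with patterns most like SLC7A11 among the 8675 genes whose mean reached 5 FPKM were KIAA0040 (r = 0.997), PRKAR1B (r = 0.997), which encodes a regulatory subunit of protein kinase A, and SFMBT1 (r = 0.996). Most like SLC3A2 were BCAS2 (r = 0.999), a spliceosome component, PLP2 (r = 0.998) and ZCCHC8 (r = 0.998), each over the same 6 libraries. PLP2, for example, had 282, 334 and 251 FPKM in the sicontrol libraries and 187, 196 and 295 FPKM in the siPOU2F1 libraries. Sicontrol replicate 2 and siPOU2F1 replicate 3 were the highest libraries of their groups for this gene, as for SLC3A2. PLP2 was chosen by its r with SLC3A2 over these libraries, so this likeness is no separate result.

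SLC1A5 took a larger share of the transporter mRNA in every siPOU2F1 library than in any sicontrol library. It made up 34.9%, 34.7% and 41.4% of the summed FPKM of the 10 genes in the sicontrol libraries and 55.5%, 56.0% and 45.7% in the siPOU2F1 libraries. The sum of the other 9 was 695, 852 and 599 FPKM in the sicontrol libraries and 408, 431 and 739 FPKM in the siPOU2F1 libraries. This share follows from the values already given and is a description without a test of its own.

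For the heteromeric transporters the files give both chains. SLC7A5 stood at 45.4%, 40.8% and 51.1% of the SLC3A2 level in the sicontrol libraries and at 50.5%, 49.4% and 40.8% in the siPOU2F1 libraries. The groups overlapped, and the fold changes of the 2 chains differed by 0.04 on the log2 scale (exact permutation p = 0.9, adjusted over the 4 pairs p = 0.9), or by 0.133 without siPOU2F1 replicate 3 and -0.045 without sicontrol replicate 2. SLC7A11 stood at 3.98%, 3.78% and 2.83% of SLC3A2 in the sicontrol libraries and at 1.49%, 2.15% and 4.59% in the siPOU2F1 libraries, with a difference of -0.42 between the log2 fold changes (exact permutation p = 0.4, adjusted p = 0.533). That difference was -0.82 without siPOU2F1 replicate 3 and -0.12 without siPOU2F1 replicate 1. The first and second siPOU2F1 libraries had the lowest SLC7A11 to SLC3A2 ratios of the 6 and the third had the highest. The 5 light chains that passed the filter, SLC7A5, SLC7A6, SLC7A7, SLC7A8 and SLC7A11, summed to between 54.6% and 67.3% of SLC3A2 in sicontrol and between 57.8% and 72.2% in siPOU2F1. SLC7A6, SLC7A7 and SLC7A8 averaged 13.9, 9.54 and 6.36 FPKM in sicontrol, so SLC7A5 supplied most of the light chain mRNA.

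Other transporters of the plasma membrane did not share one direction. Of 32 such genes listed, 8 passed the filter and 8 were at 0 FPKM in all libraries. Of the 8 tested genes 3 had a negative and 5 a positive fold change (median 0.21), and limma called 0. The 3 of lowest p were SLC7A2, the cationic carrier CAT2 (mean 1.55 FPKM in sicontrol and 2.54 in siPOU2F1, log2 fold change 0.55, limma adjusted p = 0.180), the light chain SLC7A7 (0.37, limma adjusted p = 0.287) and the neutral amino acid carrier SLC43A2 (-0.50, limma adjusted p = 0.331). The fit without siPOU2F1 replicate 3 called 1 lower and 3 higher. Of all tested genes that fit called 15.7% lower and 9.29% higher, which is the background for this list and those below. SLC7A2 and SLC7A7 were among those called higher in that fit (log2 fold changes 0.67 and 0.52, limma adjusted p = 0.0291 and 0.0216), and SLC43A2 was not called (-0.67, limma adjusted p = 0.0763). The gene called lower, named after its values were seen, was the glutamine carrier SLC38A5, or SNAT5, which had the highest level of the 8. It was at 50.6, 69.1 and 42.8 FPKM in the sicontrol libraries and at 25.6, 24.5 and 61.1 FPKM in the siPOU2F1 libraries. Its siPOU2F1 replicates 1 and 2 were below the sicontrol range and replicate 3 was within it, as for SLC38A1 and SLC38A2 (log2 fold change over all libraries -0.65, limma adjusted p = 0.370; without siPOU2F1 replicate 3, -1.07, limma adjusted p = 0.0147).

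Among carriers of the lysosome and the mitochondrion, SLC38A9, a lysosomal arginine sensor and transporter that signals to mTORC1, had the largest fold change. SLC38A9 was at 13.6, 14.1 and 11.7 FPKM in the sicontrol libraries and at 3.65, 3.07 and 8.19 FPKM in the siPOU2F1 libraries. The groups did not overlap, and the third siPOU2F1 library lay between the other siPOU2F1 libraries and the sicontrol libraries (log2 fold change -1.43, SE 0.32, limma adjusted p = 0.0936; without siPOU2F1 replicate 3, -1.82 and adjusted p = 0.00396). Of 9 tested lysosomal transporters 6 had negative and 3 positive fold changes (median -0.17) and limma called 0, or 2 lower and 0 higher without siPOU2F1 replicate 3. The others of lowest p were SLC17A5, the sialic acid exporter (0.31, limma adjusted p = 0.215; 0.29 and 0.0971 without that library), and MFSD12, a lysosomal cysteine importer (-0.35, limma adjusted p = 0.222; -0.46 and 0.0252 without it). Of 12 tested mitochondrial carriers 7 were negative and 5 positive (median -0.09), and limma called 0, or 1 lower and 0 higher without that library. SLC25A22, a glutamate carrier, had a log2 fold change of -0.53 (limma adjusted p = 0.149), the ornithine carrier SLC25A15 one of 0.39 (limma adjusted p = 0.281) and SLC25A39, which imports glutathione, one of -0.23 (limma adjusted p = 0.302). Without siPOU2F1 replicate 3 these 3 carriers had -0.52, 0.25 and -0.22, and limma called none of them (adjusted p = 0.0600, 0.210 and 0.182).

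A list of amino acid sensors, their GATOR, Rag and Ragulator partners and mTORC1 itself with RHEB, TSC1 and TSC2 had 35 tested genes. Of these, 13 had negative and 22 positive fold changes, with a median of 0.11, and limma called 0. The kinase gene MTOR, named outside the rule for named genes, was among the negative ones (log2 fold change -0.53, limma adjusted p = 0.235). Without siPOU2F1 replicate 3 MTOR had -0.73 (limma adjusted p = 0.0176). With siPOU2F1 replicate 3 left out, limma called 4 lower and 9 higher. The 3 of lowest p were FLCN, a GTPase activating protein for the Rag GTPases (mean 10.9 FPKM in sicontrol and 16.0 in siPOU2F1, log2 fold change 0.53, limma adjusted p = 0.109), BMT2, the S-adenosylmethionine sensor also called SAMTOR (-0.67, limma adjusted p = 0.111), and the Rag GTPase RRAGC (0.35, limma adjusted p = 0.190). For each of these 3 genes the groups did not overlap, and each was called without siPOU2F1 replicate 3 (log2 fold changes 0.63, -0.54 and 0.43, limma adjusted p = 0.0143, 0.0340 and 0.0282).

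The amino acid response genes, which include the targets of ATF4, were tested as 30 genes, of which 23 had negative and 7 positive fold changes (median -0.29). Limma called 1 of them, MTHFD2, an enzyme of mitochondrial folate metabolism. MTHFD2 was at 159, 151 and 140 FPKM in the sicontrol libraries and at 67.1, 75.3 and 78.4 FPKM in the siPOU2F1 libraries, so its mean fell to 49.1% of the sicontrol mean, with all 3 siPOU2F1 libraries low (log2 fold change -1.02, SE 0.10, limma adjusted p = 0.0150; without siPOU2F1 replicate 3, -1.07 and 0.00489). The call was lost without any 1 of the other 5 libraries, where the log2 fold change was -1.07 to -0.96 and limma adjusted p 0.0751 to 0.115, and with a replicate block (limma adjusted p = 0.265). The others of lowest p were ALDH18A1, an enzyme of proline synthesis (0.37, limma adjusted p = 0.133), and the hormone gene FGF21 (-1.11, limma adjusted p = 0.159), both called without siPOU2F1 replicate 3 (0.41 and -1.46, limma adjusted p = 0.0281 and 0.00994). Leaving out siPOU2F1 replicate 3 gave 13 called lower and 2 higher, where 15.7% of all tested genes were called lower and 9.29% higher. By library, the median difference of the 30 genes from the sicontrol mean was -0.49, -0.48 and 0.05 on the log2 scale in siPOU2F1 replicates 1 to 3. This list and the transporters were thus low in the same siPOU2F1 libraries. So were the lysosomal transporters (-0.32, -0.37 and 0.33), while the other plasma membrane transporters were higher there (0.38, 0.41 and 0.04).

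**Figure D4:**
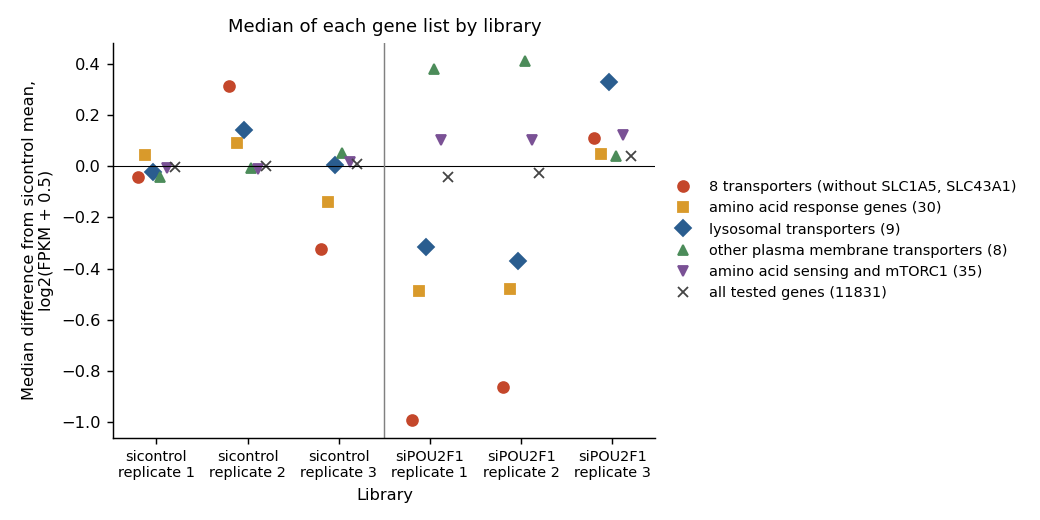
Median difference from the sicontrol mean over the tested genes of each list, in log2(FPKM + 0.5), for each library (horizontal axis), with the number of tested genes in the key. The 8 transporters other than SLC1A5 and SLC43A1 are at -0.99 and -0.86 in siPOU2F1 replicates 1 and 2 and at 0.11 in replicate 3, and the amino acid response genes are at -0.49, -0.48 and 0.05.

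Cystine brought in by SLC7A11 is used for glutathione, and the genes of cysteine and glutathione metabolism showed no common direction. Of 15 tested, 8 had negative and 7 positive fold changes (median -0.03), and limma called 0, or 3 lower and 2 higher without siPOU2F1 replicate 3. CHAC1, an enzyme that breaks down glutathione and a target of the amino acid response, was at 18.7, 27.3 and 14.7 FPKM in the sicontrol libraries and at 3.68, 3.64 and 18.8 FPKM in the siPOU2F1 libraries. The first and second siPOU2F1 libraries were again far below the sicontrol range and the third within it (log2 fold change -1.53, SE 0.60, limma adjusted p = 0.242; without that library -2.27, limma adjusted p = 0.00575). CBS, which makes cystathionine, had a log2 fold change of -0.36 (limma adjusted p = 0.192) and GSS, glutathione synthetase, one of -0.34 (limma adjusted p = 0.225). Without that library CBS had -0.46 (limma adjusted p = 0.0201) and GSS -0.26 (limma adjusted p = 0.134).

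SLC7A11 is also a target of NRF2, the transcription factor of the oxidative stress response. Of 19 tested genes of the NRF2 pathway 8 had negative and 11 positive fold changes (median 0.14). Limma called 1, the thioredoxin reductase TXNRD1, which was at 171, 177 and 167 FPKM in the sicontrol libraries and at 99.2, 103 and 123 FPKM in the siPOU2F1 libraries. TXNRD1 fell to 63.3% of the sicontrol mean, with no overlap between the groups (log2 fold change -0.67, SE 0.11, limma adjusted p = 0.0466; without siPOU2F1 replicate 3, -0.76 and 0.00575). This call was near the threshold and was lost without any 1 of the other 5 libraries (limma adjusted p = 0.123 to 0.254), without a filter (0.0699), without the mean-variance trend (0.0716), with assembled transcripts kept (0.0508) and with a replicate block (0.318). ME1, malic enzyme, had a log2 fold change of 0.63 (limma adjusted p = 0.0869) and HMOX1, heme oxygenase, one of 0.49 (limma adjusted p = 0.169), both without overlap and in the opposite direction. Without siPOU2F1 replicate 3 they had 0.67 and 0.34 (limma adjusted p = 0.0225 and 0.0555). Leaving out siPOU2F1 replicate 3 gave 3 called lower and 3 higher.

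The 3′ untranslated regions of GENCODE 29 were searched for the words AACTGCA and AGAATGA. An earlier analysis picked these words from the fold changes of these same libraries, so their presence supports nothing about the transporters. Only 1 transcript per gene was searched, that with the longest coding sequence, so regions found only in other transcripts were not covered. AACTGCA occurred in 3 of the 9 transporters with a region long enough to search, once in SLC7A11, once in SLC7A1 and at 2 places in SLC38A2. SLC6A9, with 17 bases in its chosen transcript, was not searched. AACTGCA occurred in 12.4% of all 11520 genes searched and in 34.8% of the 1988 genes whose region is at least as long as that of SLC38A2 (2922 bases). The sites lie in the last exon of each gene and are shown on the strand of the gene, with the word in capitals and, for SLC38A2, the first of its sites.
SLC7A11 at chr4:138164593-138164622: ttaaagagcaaAACTGCAttttatttctgc
SLC7A1 at chr13:29509631-29509660: attctgatgctAACTGCAaatcaggttggt
SLC38A2 at chr12:46359739-46359768: cattttggtccAACTGCAtgtcaacccttc
AGAATGA occurred at 2 places in SLC7A11, whose region has 7859 bases, and in no other transporter searched. It occurred in 14.88% of all genes searched and in 42.35% of those whose region is at least as long as that of SLC38A2. The searched regions of SLC7A5, SLC3A2, SLC38A1 (402 bases), SLC1A4, SLC43A1 and SLC1A5 hold neither word. SLC1A5 was above every sicontrol library in all siPOU2F1 libraries, and the levels of the other 5 were below every sicontrol library in siPOU2F1 replicates 1 and 2 like those of SLC7A11, SLC7A1 and SLC38A2.

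Markers of the labelled cell type were present. The summed FPKM of 8 colonic epithelial markers ranged from 2700 to 3620 in sicontrol and from 3730 to 5160 in siPOU2F1, with CDH17 and LGALS4 at no more than 0.121 and 0.125 FPKM in any library. Of the 6 tested markers 6 had a positive fold change and limma called 0. With siPOU2F1 replicate 3 left out, 5 had a positive and 1 a negative fold change, and limma called 3 higher. KRT8 had 693, 707 and 1170 FPKM in the sicontrol libraries and 1980, 1920 and 1150 FPKM in the siPOU2F1 libraries, so it was high in siPOU2F1 replicates 1 and 2, where most transporters were low, and within the sicontrol range in replicate 3. KRT19, CDH1 and VIL1 were likewise above the sicontrol range in siPOU2F1 replicates 1 and 2 and within it in replicate 3. The other tested markers differed from this. KRT18 was above the sicontrol range in all siPOU2F1 libraries (1310, 1270 and 1540 FPKM in sicontrol, 2180, 2100 and 1790 FPKM in siPOU2F1). EPCAM was within it in siPOU2F1 replicates 1 and 2 and above it in replicate 3 (204, 216 and 218 FPKM in sicontrol, 212, 210 and 223 FPKM in siPOU2F1). The part of these markers in the transporter differences was not tested. Markers of other cells were low, with sums of at most 3.69 FPKM for fibroblasts (COL3A1 and DCN at 0 in all libraries), 7.80 FPKM for leukocytes (PTPRC at 0, CD68 the main part) and 0.954 FPKM for endothelium. In bulk RNA, fewer cells with a transcript and less transcript per cell cannot be told apart.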

How the data were processed

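The 6 HCT116 libraries of polyA RNA were grouped by their titles. What the authors deposited for each is a table of FPKM values. StringTie 2.1.2, HISAT2 2.0.4, Bowtie2 2.2.5 and the build hg38 appear, with no roles, in the submitters' processing notes. Annotation, filters and the strand setting of the counting were not given in the sources used here, so antisense overlaps with SLC7A11, SLC7A5, SLC1A5 and SLC6A9 leave their values uncertain. The tables share 22782 features, and 2308 of these, transcripts assembled from reads, were left out.

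Values were used as deposited, as log2(FPKM + 0.5), which understates the change of low genes. The 11831 genes whose mean reached 1 FPKM entered limma 3.58.1 (R 4.3.3) with group alone in the design, a trend of variance on mean and Benjamini-Hochberg adjustment over them all, and were called at an adjusted p under 0.05. Pairs of transporters were compared by exact permutation (scipy 1.17.1).

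The members and lists were chosen with earlier results of these data known. Named were POU2F1, the 10 transporters, the called genes of each list (filled up to 3 by lowest p) and the 3 genes most correlated with SLC7A11 and with SLC3A2. Outside this rule, SLC38A5, MTOR, SLC7A6, SLC7A8, CCDC24 and cell type markers were also given with values. No label ties replicate numbers to a shared culture. Pseudocounts, filters, scalings, variance models, a replicate block and leaving out each library were tried as alternatives.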

Additional observations from a re-analysis of the deposited data

How the results depend on the processing

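All 180 recomputed fold changes (10 transporters under 18 alternatives) kept their direction, and 19 of them were called. Library quality weights in limma gave 9 transporters called lower and 1 higher, 3312 and 2651 of all genes, and 72 other listed genes, where the fit as reported gave 0, 0, 100, 47 and 2. Leaving out 1 library moved the transporters called lower between 0 and 9 (9 only without siPOU2F1 replicate 3), all genes called lower between 0 and 1855 and higher between 0 and 1099, and other listed genes called between 0 and 44. Without any of the other 5 libraries, limma called at most 5 genes lower and 4 higher (1176 to 2046 genes had an unadjusted p under 0.05), and POU2F1, between -1.06 and -0.95 over all 6, was not called (limma adjusted p from 0.114 to 0.220); MTHFD2 and TXNRD1 were not called either. The difference between the fold changes of SLC7A5 and SLC3A2 turned to -0.045 without sicontrol replicate 2, and to -0.021 and -0.005 without the first and the second siPOU2F1 library, within a range of -0.045 to 0.133; that of SLC7A11 and SLC3A2 ranged from -0.82 to -0.12. Without a filter, limma called 48 genes lower, 24 higher and 1 other listed gene, with POU2F1 at -0.99 (limma adjusted p = 0.0650); without the trend it called 23 higher and 1 other listed gene; with assembled transcripts kept, 1 other listed gene; TXNRD1 was the gene lost in all 3. With a mean of at least 5 FPKM required, POU2F1 was not tested. The cause of these changes was not tested.

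With the replicate number as a block, limma called 0 genes lower, 0 higher and 0 other listed genes (1208 genes at an unadjusted p under 0.05), and POU2F1 had -0.99 (limma adjusted p = 0.297). The deviations of same-numbered libraries correlated at 0.133, -0.545 and -0.512, and no library correlated best with its own number. The highest correlation, 0.643, was between sicontrol replicate 2 and siPOU2F1 replicate 3. The numbers were therefore not taken to pair the libraries.

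FPKM keep no counts, so precision rests on 3 libraries per group. Relative depth, read from 9 to 17 low genes per library, put siPOU2F1 replicate 1 lowest at -0.36 on the log2 scale against sicontrol replicate 1.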
